A study of Sus scrofa with 24 samples.

Results

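The transcripts that bring fatty acids into fat cells and prepare them for storage were followed in subcutaneous adipose tissue of pigs. The set held 9 genes: LPL, CD36, SLC27A1, FABP3, FABP4, FABP5, ACSL1, ACSL3 and ACSL4. Their probes were taken as those whose gene name, or whose RefSeq symbol through the accession in the files, was one of these names, which gave 39 probes of the 43603 on the array. Of these, 38 passed the filter on dim probes, among 28601 kept probes and 4330 gene symbols in all. The number of probes per gene was 5 for LPL, 4 for CD36, 3 for SLC27A1, 4 for FABP3, 7 for FABP4, 4 for FABP5, 3 for ACSL1, 3 for ACSL3 and 6 for ACSL4. The probe left out was one of SLC27A1.

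Fat cells take up fatty acids that lipoprotein lipase, encoded by LPL, releases from circulating triglyceride at the vessel wall. CD36 and the transport protein encoded by SLC27A1 help them across the membrane, small binding proteins of the FABP family carry them through the watery cytosol, and long-chain acyl-CoA synthetases of the ACSL family join them to coenzyme A, which commits them to storage or oxidation. In fat tissue this chain supplies the acyl groups from which stored triglyceride is rebuilt.

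Total RNA of 24 pigs at 115 kg body weight was measured on Agilent one-colour arrays (Cy3 dye), 1 array per pig and 8 pigs per group. RFIneg pigs were of a line with low residual feed intake and ate ad libitum. RFIplR pigs were of a line with high residual feed intake and were held to the feeding level of RFIneg, and RFIpl pigs were of the same high line and ate ad libitum. Residual feed intake is the feed eaten beyond what growth and maintenance predict. RFIneg against RFIpl compares the lines under free feeding, RFIneg against RFIplR compares them at one feeding level, and RFIplR against RFIpl compares feeding levels within the high line.

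Each array probe is a stretch of 60 bases, and 5 of the 39 are shown because the results for FABP3 and FABP4 turn on whether separate probes of one gene gave the same answer. In the FABP3 probes that start at bases 338 and 385 of the transcript, capitals mark the 13 bases that they share. In the FABP3 probe at 197 and the FABP4 probe at 207, capitals mark the bases that are identical between them, 28 of 44 aligned bases (63.6%). The FABP4 probe at 387, where the group difference was smaller, is in lower case.
FABP3 at 338: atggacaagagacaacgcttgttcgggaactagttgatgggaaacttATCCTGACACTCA
FABP3 at 385: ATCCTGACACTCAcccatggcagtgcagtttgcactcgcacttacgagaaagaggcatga
FABP3 at 197: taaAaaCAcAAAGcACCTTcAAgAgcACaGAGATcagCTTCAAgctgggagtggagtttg
FABP4 at 207: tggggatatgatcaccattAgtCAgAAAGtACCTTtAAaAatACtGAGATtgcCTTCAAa
FABP4 at 387: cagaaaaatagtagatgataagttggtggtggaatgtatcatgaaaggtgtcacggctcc
The fourth FABP3 probe, at base 620 of another sequence record, carries the gene name only. Overlap also linked the FABP4 probes at 473 and 507 by 26 bases, those at 507 and 556 by 11, the FABP5 probes at 509, 512 and 517 by 52 to 57, the FABP5 probe at 457 with those at 509 and 512 by 8 and 5, and the ACSL4 probes at 2085 and 2089 by 56, so these are not independent readings.

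Levels are given as log2 of the processed intensity over the 75th percentile of the same array. The 24 arrays fell into 17 bright ones (75th percentile 414 to 663; 6 RFIneg, 5 RFIplR and 6 RFIpl) and 7 dim ones (69.4 to 94.4; 2 RFIneg, 3 RFIplR and 2 RFIpl). All 7 dim arrays were scanned on day 2 of 3, with 3 of the bright ones, and what the classes come from was not tested. Differences were fitted with limma both without a block and with the brightness class as a block. A difference is from the fit with the block unless said otherwise. RFIneg minus RFIpl is the same in both fits, since each of these groups had 6 bright and 2 dim arrays, and its error differs. Markers of the labelled tissue were present, with 10 of 12 listed adipocyte genes measured and a summed log2 level of 8.93 to 10.1 over the arrays. Skeletal muscle markers reached a summed level of 10.5 on the array RFIpl 2, against 5.45 or less on the other arrays, and keratinocyte markers reached 5.91 and 4.43 on RFIpl 7 and 8, against 0.54 or less on the other arrays. Nothing in the labels says how the pigs within a group were related, so the p-values measure the spread between these 24 pigs. In whole tissue, fewer cells of a type and less RNA per cell cannot be told apart.

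Probes of one gene differed in opposite directions between the bright and the dim arrays. For LPL, bright minus dim arrays stood at -2.43 for the probe at 335, -1.69 at 669, -0.22 at 2157, 1.97 at 2473 and 2.08 at 2599 (log2 difference, mean over the 3 groups). The offset thus ran from negative to positive along the transcript. CD36 had offsets of -1.32 and -1.80 at bases 399 and 834, against 2.62 and 1.11 at 1969 and 2173. All 4 FABP3 offsets (1.44 to 2.33) and all 4 FABP5 offsets (1.30 to 1.82) were positive, and all 3 ACSL1 offsets (-1.81 to -0.45) were negative. FABP4 offsets were 0.01 at base 556, the probe with the highest mean level of that gene, and 2.60 at base 811.

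**Figure D1:**
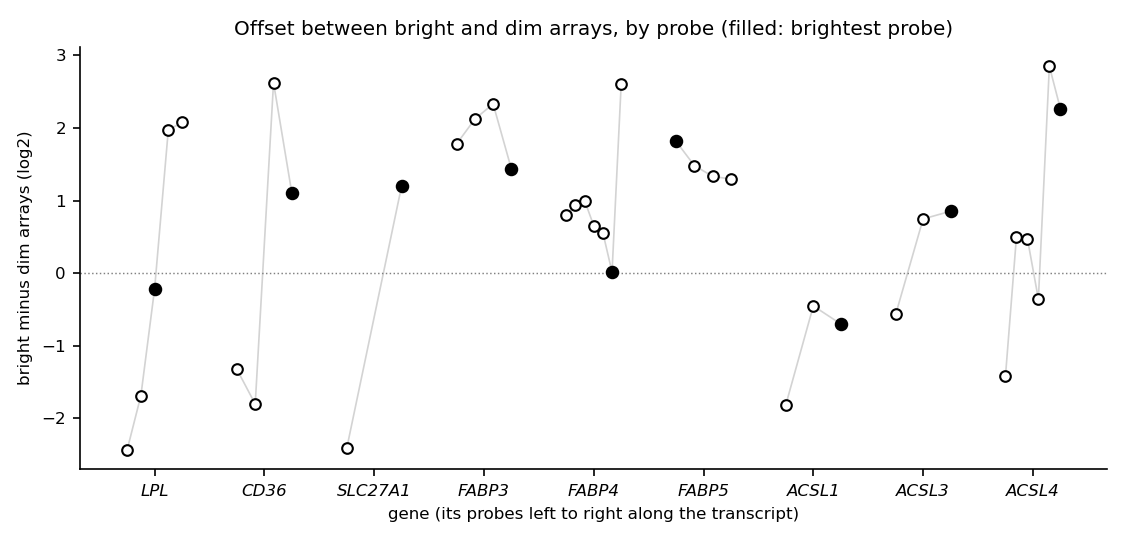
Offset between bright and dim arrays (vertical axis, log2 difference, mean over the 3 groups) for the 38 kept probes of the 9 genes, ordered along each transcript. LPL runs from -2.43 at its first probe to 2.08 at its last, while the FABP3 and FABP5 probes are all above 0 and the ACSL1 probes all below.

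At the probe with the highest mean level of each gene, none of the 9 genes passed the adjusted threshold of 0.05 in any comparison without a block (limma, Benjamini-Hochberg over all 28601 probes). The share of all probes called in that fit was 0.206% for RFIneg against RFIpl, 0% for RFIneg against RFIplR, 0.297% for RFIplR against RFIpl and 0.28% for any group difference. At an unadjusted p under 0.05, 1962, 605 and 2341 of all probes passed in the 3 pairwise comparisons. With brightness as a block, 0 of 9 genes passed in RFIneg against RFIpl (6.63% of all probes), 0 in RFIneg against RFIplR (0%) and 1, FABP3, in RFIplR against RFIpl (10.4%). FABP3 was also the single member that passed the test of any group difference with the block (adjusted p = 0.044; 9.03% of all probes), and with 1 array left out at a time 16 of 24 such fits called no member. A count of 0 or 1 in 9 is near these shares, so the count itself sets the 9 genes apart in none of the comparisons. Without a block the median difference over the 9 genes was 0.04 in RFIneg against RFIpl, 0.34 in RFIneg against RFIplR and -0.26 in RFIplR against RFIpl, where the medians over all probes were -0.01, -0.01 and 0.01. With the block the medians were 0.04, 0.24 and -0.17 for the 9 genes and -0.01, 0.02 and -0.02 for all probes. The 3 comparisons share groups and are not independent of each other.

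**Figure D2:**
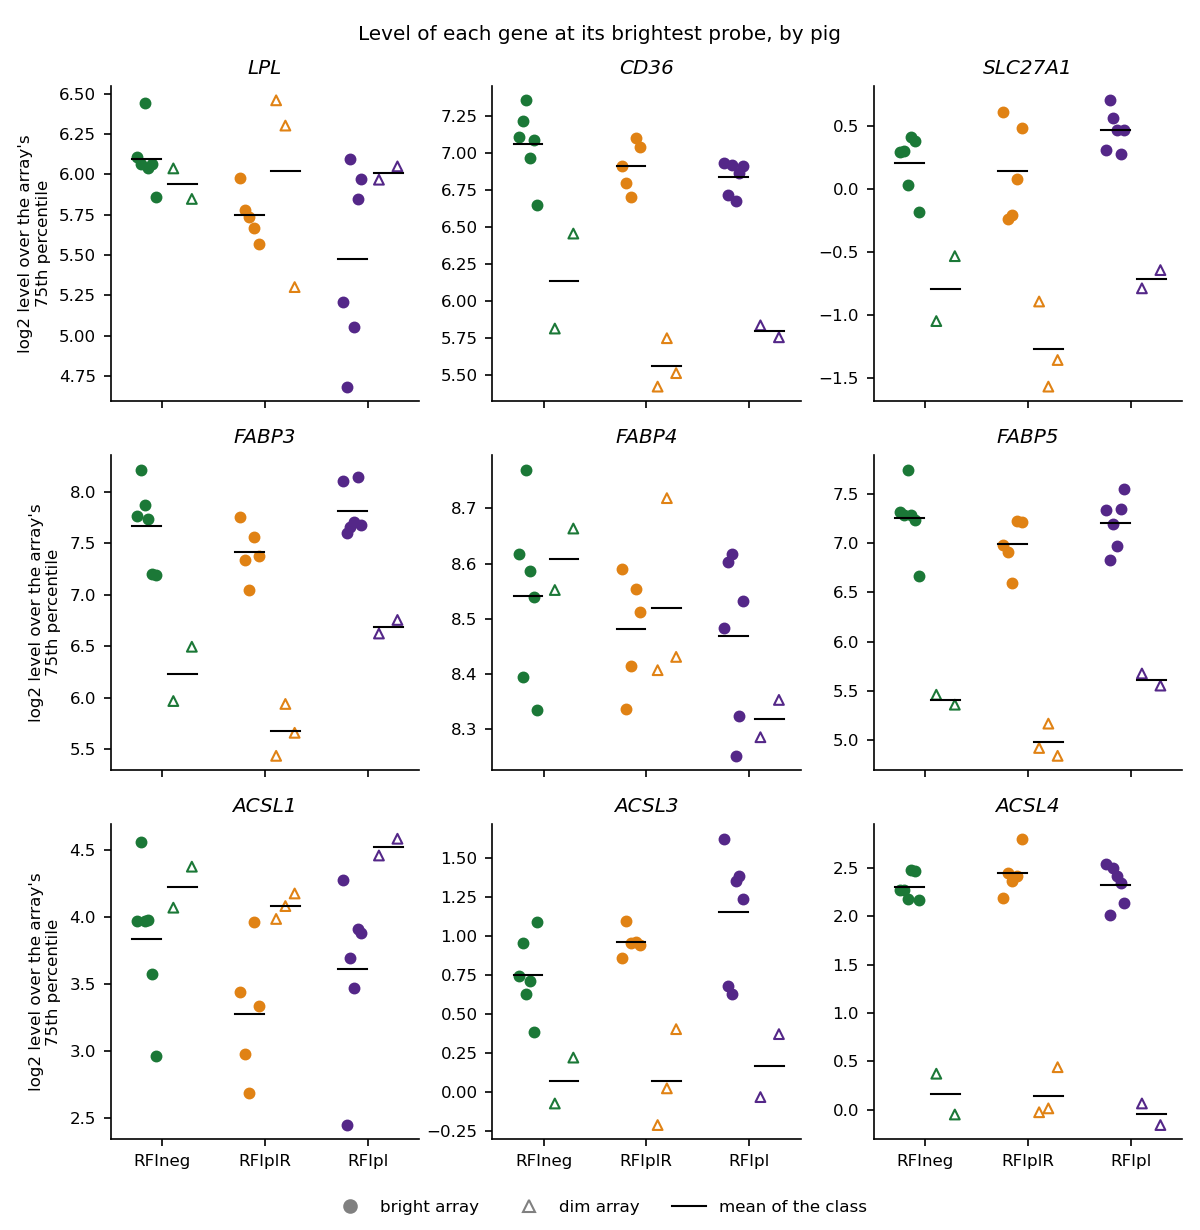
Log2 level over the array's 75th percentile (vertical axes) at the probe with the highest mean level of each gene, 1 point per pig, with filled circles for bright arrays, open triangles for dim arrays and a bar at the mean of each class. FABP3 lies lower in RFIplR than in RFIpl in both classes, and the LPL values of RFIpl spread from 4.69 to 6.09.

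LPL, the lipase that frees fatty acids from lipoprotein triglyceride, stood higher in RFIneg than in RFIpl at all 5 probes, by 0.43 to 0.47, and no probe passed the test. At base 2157 its level had a lowest, median and highest value of 5.85, 6.05 and 6.44 in RFIneg, of 5.30, 5.76 and 6.46 in RFIplR, and of 4.69, 5.91 and 6.09 in RFIpl. The RFIneg pigs lay close together (SD 0.18, n = 8), while RFIpl 1, 2 and 4 read 5.21, 4.69 and 5.06, below every RFIneg array, and the groups overlapped. RFIpl 2, the lowest, was the array with the high muscle markers. The difference of RFIneg minus RFIpl was 0.45 (SE 0.21, a 1.36-fold level, adjusted p = 0.69) without a block and 0.45 (SE 0.19, 95% confidence interval 0.06 to 0.84, adjusted p = 0.16) with it. It was 0.62 on the bright arrays and -0.07 on the dim arrays. The probe at 2599 had an adjusted p of 0.082 with all arrays and the block, and it passed (0.55, adjusted p = 0.026) when RFIpl 3 was left out. That was 1 of 24 fits that left out 1 array, and the adjusted p at 2599 reached 0.17 in the others. At 2157 none of these fits passed, with differences of 0.32 to 0.53 and adjusted p 0.075 to 0.28. RFIneg minus RFIplR was 0.24 (adjusted p = 0.72) and RFIplR minus RFIpl 0.21 (adjusted p = 0.52) with the block.

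CD36, the scavenger receptor that binds fatty acids at the cell surface, also stood higher in RFIneg than in RFIpl at every probe without passing the test. Its lowest, median and highest levels at base 2173 on bright arrays were 6.65, 7.10 and 7.36 in RFIneg, 6.70, 6.91 and 7.10 in RFIplR, and 6.68, 6.89 and 6.93 in RFIpl. Of the 6 bright RFIneg arrays, 5 lay above the RFIpl mean of 6.84, and the ranges overlapped. All 4 probes were 0.22 to 0.31 higher in RFIneg than in RFIpl, with adjusted p-values of 0.16 to 0.37 with the block. RFIneg minus RFIplR was 0.29 (SE 0.11, adjusted p = 0.45) at base 2173, and there the 2 dim RFIneg arrays lay above the 3 dim RFIplR arrays.

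SLC27A1, a fatty acid transport protein whose activity is coupled to acyl-CoA formation, was read at 2 kept probes, of which the one at base 1037 was well above background on 6 RFIneg, 4 RFIplR and 7 RFIpl arrays. At base 3232, the probe counted for the gene, its lowest, median and highest levels were -1.05, 0.16 and 0.41 in RFIneg, -1.57, -0.22 and 0.62 in RFIplR, and -0.79, 0.39 and 0.71 in RFIpl. The 3 dim RFIplR arrays all lay below the 2 dim RFIpl arrays, and the bright arrays of these groups overlapped. In RFIplR minus RFIpl the probe at 1037 gave 0.07 without a block and -0.23 with it (adjusted p = 0.60). At 3232 this difference was -0.56 without a block (adjusted p = 0.78) and -0.40 with it (SE 0.14, 95% confidence interval -0.69 to -0.12, adjusted p = 0.066). It was -0.33 with slide and brightness as blocks (adjusted p = 0.19), -0.32 on the bright arrays (adjusted p = 0.28) and -0.56 on the dim arrays (adjusted p = 0.33). With the brightness block it passed when RFIplR 1 was left out (-0.49, adjusted p = 0.024) and when RFIplR 8 was left out (-0.47, adjusted p = 0.037). These were 2 of 24 such fits, and the adjusted p reached 0.13 in the others. Within the 4 sets of arrays that shared a slide and a brightness class and held both groups, RFIplR was lower in all 4, with differences between -0.78 and -0.09. Each of these sets held only 1 RFIplR array and 1 or 2 RFIpl arrays.

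FABP3, the fatty acid binding protein best known from heart and skeletal muscle, was the member with a group difference past the test: it fell in RFIplR relative to RFIpl at all 4 of its probes once brightness was a block. At base 620 the 5 bright RFIplR arrays read 7.76, 7.33, 7.04, 7.57 and 7.38, against a lowest, median and highest value of 7.60, 7.70 and 8.14 on the 6 bright RFIpl arrays. The 3 dim RFIplR arrays read 5.43, 5.94 and 5.66, against 6.62 and 6.75 on the 2 dim RFIpl arrays. So the bright arrays overlapped through RFIplR 1, all 5 lay below the RFIpl mean of 7.82, and the dim arrays did not overlap. RFIneg had 7.19, 7.76 and 8.22 as lowest, median and highest on 6 bright arrays and 5.97 and 6.49 on 2 dim ones, and its bright range overlapped both other groups.

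With the block, FABP3 in RFIplR minus RFIpl was -0.59 at base 620 (SE 0.16, 95% confidence interval -0.91 to -0.27, 1.51-fold lower, adjusted p = 0.019). The other 3 probes gave -0.71 (adjusted p = 0.020), -0.64 (adjusted p = 0.015) and -0.64 (adjusted p = 0.020) at bases 197, 338 and 385, so that 4 of 4 probes were called lower, where 4.51% of all probes were called lower in this comparison. The probes read one transcript in the same pigs and do not count as repeats. Without a block the 4 differences were between -0.94 and -0.77 and none passed (adjusted p 0.61 to 0.83). The difference was -0.40 within the bright arrays (adjusted p = 0.23) and -1.01 within the dim arrays (adjusted p = 0.17). It was -0.56 with slide and brightness as blocks (adjusted p = 0.066), and within slide and class it was lower in 3 of 4 sets (-0.69 to 0.16). Each set held only 1 RFIplR array and 1 or 2 RFIpl arrays. With each of the 24 arrays left out in turn the call at base 620 held in 23 fits, and without RFIpl 6, 1 of the 2 dim RFIpl arrays, it was -0.53 (adjusted p = 0.051).

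**Figure D3:**
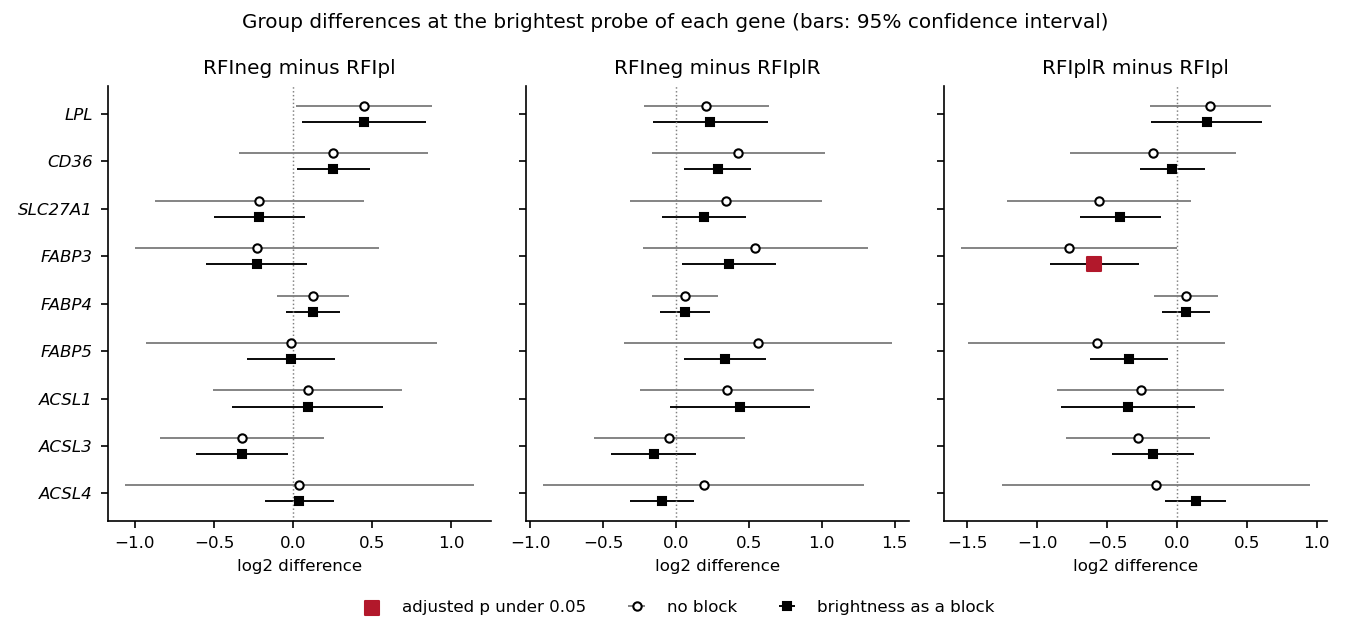
Difference of log2 levels (horizontal axes) for the 9 genes at the probe with the highest mean level in the 3 comparisons, with 95% confidence intervals, open circles without a block and squares with brightness as a block. The one filled red square marks FABP3 in RFIplR minus RFIpl at -0.59, and the intervals of FABP5 and ACSL4 are much shorter with the block.

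FABP3 in RFIneg was 0.36 above RFIplR (SE 0.16, adjusted p = 0.47; 0.54 without a block) and 0.23 below RFIpl (difference -0.23, SE 0.15, adjusted p = 0.40) with the block, and neither passed. Muscle RNA carries FABP3, and the muscle marker list was therefore set beside it. The array with muscle transcripts, RFIpl 2, had the lowest FABP3 level of the bright RFIpl arrays at 7.60, and without it RFIplR minus RFIpl was -0.63 (adjusted p = 0.016). Over the other arrays the summed level of the 8 measured muscle markers was 3.63 to 5.07 in RFIplR and 3.88 to 5.45 in RFIpl. The part of muscle RNA in the FABP3 levels was not tested. Without RFIpl 7 and 8, which carried keratinocyte transcripts, the difference was -0.59 (adjusted p = 0.045).

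FABP4, the abundant binding protein of fat cells, gave different answers at different probes. With the block, RFIneg was above RFIpl by 0.52 at base 51 (SE 0.15, adjusted p = 0.041), 0.44 at 207 (SE 0.11, adjusted p = 0.021) and 1.09 at 811 (SE 0.28, adjusted p = 0.024), and these 3 of 7 probes were called higher, where 4.33% of all probes were. The probes at 387 and 473 gave 0.24 and 0.22 (adjusted p = 0.092 and 0.084), and those at 507 and 556 gave 0.04 and 0.13 (adjusted p = 0.83 and 0.38). The probe at 556 had the highest mean level, and its value is the one counted for the gene. The 3 called probes had the lowest mean levels of the 7, at 3.05, 6.45 and 6.56, against 7.79 to 8.49 for the others. What this order comes from was not tested. None of the 7 passed without a block (lowest adjusted p 0.725), with slide and brightness as blocks (0.09 to 1.34, lowest adjusted p 0.0505), or on the bright arrays alone (-0.04 to 1.23, lowest adjusted p 0.0915) or the dim arrays alone (0.25 to 0.68, lowest adjusted p 0.485).

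At base 207 the lowest, median and highest FABP4 levels on bright arrays were 6.70, 7.08 and 7.22 in RFIneg and 6.25, 6.62 and 6.83 in RFIpl. The 2 dim RFIneg arrays read 5.92 and 6.44, against 5.69 and 5.75 on the dim RFIpl arrays. Dim arrays did not overlap and bright ones did, through RFIneg 8 at 6.70. At base 556 the values were 8.33, 8.57 and 8.77 in RFIneg, 8.34, 8.47 and 8.72 in RFIplR, and 8.25, 8.42 and 8.62 in RFIpl, which overlapped almost fully. Of the 24 fits that left out 1 array, the probe at 51 was called in 12, that at 207 in 23 (not without RFIpl 4) and that at 811 in 21 (not without RFIneg 3, RFIpl 1 or RFIpl 4). RFIplR minus RFIpl and RFIneg minus RFIplR were not called at any FABP4 probe (0.05 to 0.44 and -0.0028 to 0.65 with the block).

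**Figure D4:**
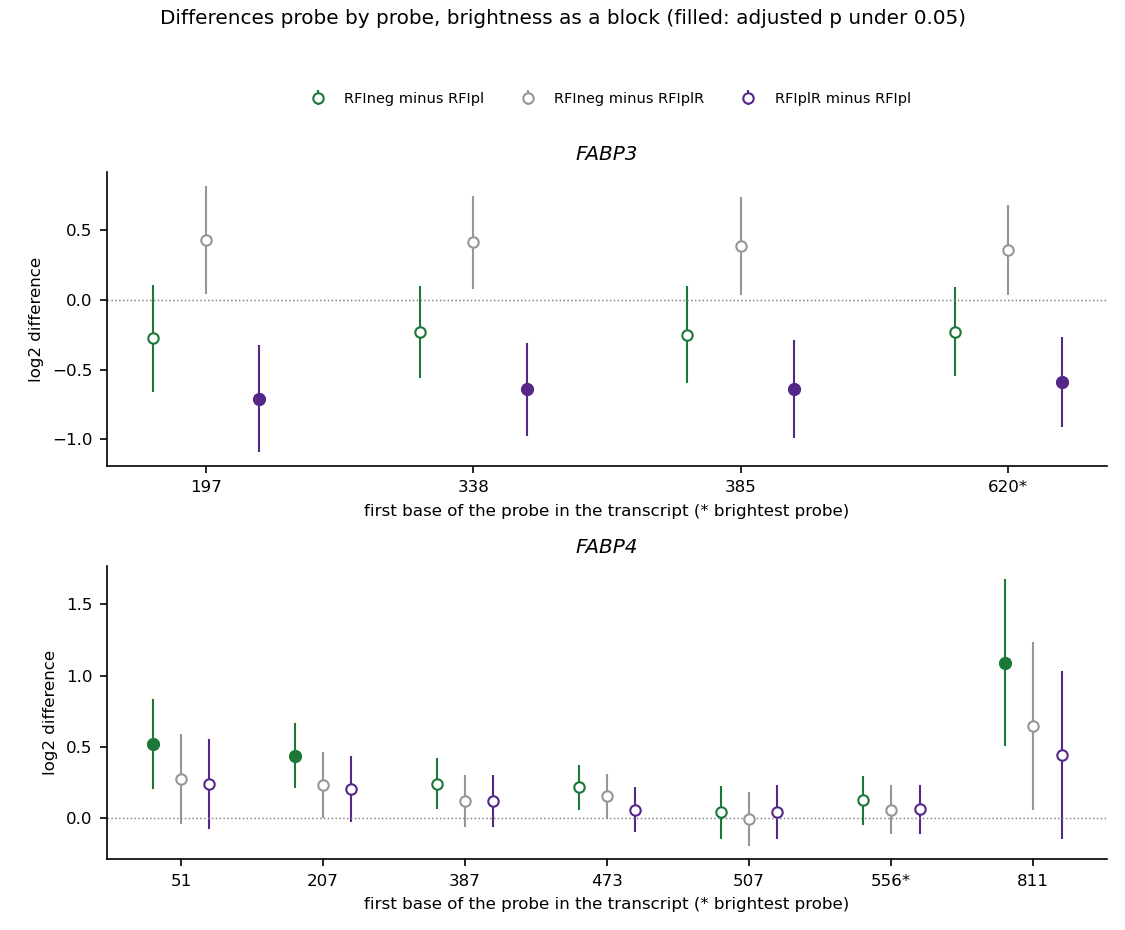
Difference of log2 levels (vertical axes) by probe of FABP3 and FABP4, ordered along the transcript, with brightness as a block, 95% confidence intervals and filled points for an adjusted p under 0.05. All 4 FABP3 probes sit between -0.71 and -0.59 in RFIplR minus RFIpl, while FABP4 in RFIneg minus RFIpl ranges from 0.04 to 1.09 with 3 filled points.

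FABP5, the epidermal binding protein that fat cells and macrophages also make, gave differences of RFIneg minus RFIpl between -0.07 and -0.0024 at its 4 probes, and at base 457 the 95% confidence interval with the block was -0.29 to 0.27. RFIplR stood lower than RFIpl at all 4 probes, with differences between -0.57 and -0.50 without a block (lowest adjusted p 0.87) and between -0.36 and -0.33 with it (adjusted p 0.11 to 0.16). At base 457 the bright RFIplR arrays had a lowest, median and highest value of 6.60, 6.98 and 7.23, against 6.83, 7.26 and 7.55 in RFIpl. The 3 dim RFIplR arrays read 4.84 to 5.17, below the 5.55 and 5.67 of the dim RFIpl arrays. The macrophage list beside it had 4 of 12 markers measured and none called, with a summed level of 2.20 to 4.17 in RFIplR and 2.74 to 4.34 in RFIpl over all arrays. Without RFIpl 7 and 8, which carried keratinocyte transcripts, RFIneg minus RFIpl at base 457 turned to 0.20 without a block and 0.052 with it. The part of keratinocyte RNA in the FABP5 levels was not tested.

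ACSL1, the main long-chain acyl-CoA synthetase of fat cells, gave small differences of RFIneg minus RFIpl at its 3 probes (0.04 to 0.10), none of them called. They joined opposite directions: the differences were 0.20 to 0.32 on bright arrays, where the groups overlapped, and between -0.55 and -0.30 on dim arrays, where they did not. Without RFIpl 2 the difference at base 3070 was -0.084 with the block. At base 3070 its lowest, median and highest levels were 2.96, 3.97 and 4.56 in RFIneg, 2.68, 3.70 and 4.17 in RFIplR, and 2.45, 3.89 and 4.58 in RFIpl, and the lowest RFIpl value was that of RFIpl 2. All groups overlapped on bright arrays, while the 3 dim RFIplR arrays (3.98 to 4.17) lay below the 2 dim RFIpl arrays (4.46 and 4.58). RFIplR minus RFIpl was between -0.52 and -0.26 over the 3 probes without a block (lowest adjusted p 0.80) and between -0.67 and -0.35 with it (adjusted p 0.095 to 0.36). Without RFIpl 2 the probes at 1314 and 2506 were called (-0.83, adjusted p = 0.026, and -0.81, adjusted p = 0.022), and the probe at 1314 was also called without RFIplR 7 (-0.84, adjusted p = 0.036). Of 24 fits that left out 1 array, 2 called the probe at 1314, 1 that at 2506 and 0 that at 3070. The adjusted p reached 0.19 at 1314 and 0.38 at 2506. RFIneg stood 0.44 to 0.71 above RFIplR at the 3 probes with the block (adjusted p 0.41 to 0.56) and 0.35 to 0.62 above it without.

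ACSL3, a synthetase of the endoplasmic reticulum and lipid droplets, ran the other way from LPL and CD36. At base 2320 its lowest, median and highest levels were -0.08, 0.67 and 1.09 in RFIneg, -0.21, 0.90 and 1.10 in RFIplR, and -0.04, 0.96 and 1.63 in RFIpl. RFIneg minus RFIpl was between -0.32 and -0.18 over 3 probes (-0.32 at 2320, SE 0.14, adjusted p = 0.17 with the block). At 2320 all 6 bright RFIneg arrays lay below the bright RFIpl mean of 1.15. On dim arrays the difference was 0.21 at 1081, 0.16 at 2235 and -0.10 at 2320, and the groups overlapped. RFIplR minus RFIpl was between -0.28 and -0.13 over the 3 probes without a block and between -0.21 and -0.13 with it, none of them called.

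ACSL4, a synthetase that prefers arachidonic acid, had no probe called in any comparison. Its bright arrays at base 4760 had lowest, median and highest levels of 2.16, 2.27 and 2.48 in RFIneg, 2.18, 2.42 and 2.80 in RFIplR, and 2.01, 2.38 and 2.54 in RFIpl. On dim arrays the gene stood between -0.16 and 0.44 in the 3 groups. RFIneg minus RFIpl was 0.04 with a 95% confidence interval of -0.18 to 0.26 with the block, The other comparisons turned with the block. RFIneg minus RFIplR was 0.19 without it and -0.09 with it (adjusted p = 0.81), and RFIplR minus RFIpl was -0.15 without it and 0.13 with it (adjusted p = 0.46). With the block all 6 probes were above 0 in RFIplR minus RFIpl (0.01 to 0.32), where without it 4 were above and 2 below (-0.15 to 0.37). With the block 2 of them were called when an array was left out, that at 2085 without RFIpl 4 (0.37, adjusted p = 0.032) and that at 4197 without RFIplR 1 (0.43, adjusted p = 0.026). Each was called in only 1 of 24 such fits, with adjusted p up to 0.13 at 2085 and 0.22 at 4197.

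Genes that work beside these 9 were counted in the same fits, and of 87 listed, 43 were on the array and 39 were measured. None was called without a block. With the block, none of 8 genes of lipoprotein lipase handling, 7 of membrane uptake, 7 further carriers and 4 of acyl-CoA synthesis and hydrolysis was called in any comparison. Of 13 regulators, 1 rose in RFIneg relative to RFIpl, none was called in RFIneg against RFIplR, and 2 rose and 1 fell in RFIplR relative to RFIpl. Of all probes 4.33% were called higher in RFIneg minus RFIpl, and 5.85% higher and 4.51% lower in RFIplR minus RFIpl, and the regulators' counts, 1, 2 and 1 of 13, are too few to set them apart from these shares. KLF15, a transcription factor of fat and muscle metabolism, had a level of 3.93 ± 0.22 in RFIneg (SD, n = 6), 3.74 ± 0.36 in RFIplR (n = 5) and 2.83 ± 0.60 in RFIpl (n = 6) on bright arrays. Its difference was 0.95 in RFIneg minus RFIpl (limma adjusted p = 0.0067) and 0.78 in RFIplR minus RFIpl (limma adjusted p = 0.014) with the block. Without it they were 0.95 (adjusted p = 0.98) and 0.48 (adjusted p = 0.999).

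PPARA, a nuclear receptor for fatty acids, rose in RFIplR relative to RFIpl by 1.34 (SE 0.43, limma adjusted p = 0.0495). NR1H3, the oxysterol receptor LXR alpha, fell by 0.38 in that comparison (SE 0.12, limma adjusted p = 0.0498). Both lay at the edge of the threshold, and without a block they were 1.23 and -0.38 (adjusted p = 0.40 and 0.36). PPARG, the nuclear receptor known to drive many of these genes in fat cells, differed by -0.07 in RFIneg minus RFIpl and by -0.15 in RFIplR minus RFIpl (limma adjusted p = 0.83 and 0.57). The median difference in RFIneg minus RFIpl was 0.29 over the 7 membrane uptake genes, 0.25 over the 7 carriers, 0.17 over the 8 genes of lipase handling, 0.13 over the 4 of acyl-CoA synthesis and hydrolysis and 0.07 over the 13 regulators.

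Some adipocyte markers were called in the comparisons in which FABP3 or 3 of the 7 FABP4 probes were called. The FABP4 probe counted for the gene was not called. With the block, 6 of 10 measured markers were called higher in RFIneg than in RFIpl, among them AQP7 (0.79), TUSC5 (1.05), LIPE (0.55) and PLIN1 (0.48). In RFIplR against RFIpl 3 were called higher, ADIPOQ (0.29), PLIN1 (0.39) and AQP7 (0.60). The shares of all probes called higher in these comparisons were 4.33% and 5.85%, and none of the markers was called without a block. Their summed level was 9.73 to 10.10 in RFIneg, 9.75 to 10.08 in RFIplR and 9.21 to 10.02 in RFIpl on bright arrays, and 9.43 to 9.70, 9.29 to 9.37 and 8.93 to 8.995 in the same groups on dim arrays. The markers thus stood on the same side as FABP4 in RFIneg against RFIpl and on the opposite side to FABP3 in RFIplR against RFIpl. Endothelial markers, of which 7 of 12 were measured, had 1 called higher (VWF) in RFIneg than in RFIpl. In RFIplR against RFIpl 2 were called higher (PECAM1 and CDH5) and 1 lower (KDR). The shares of all probes called higher are those above, and 4.51% were called lower in RFIplR minus RFIpl. Of 6 measured stromal markers only COL1A2 was called, lower in both comparisons. Of 28601 probes, 659 were called lower in RFIneg minus RFIpl and 1290 in RFIplR minus RFIpl. No endothelial or stromal marker was called without a block. The part of these cell types in the differences was not tested.

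Across pigs some pairs of members were correlated. How often other pairs of genes reach such values on these arrays was not measured, so the correlations do not set the members apart. Over the 17 bright arrays, 5 of 36 pairs passed a Benjamini-Hochberg adjusted permutation p of 0.05 for Pearson's r. They were CD36 with FABP5 (r = 0.80, rho = 0.69, adjusted p = 0.0029), FABP5 with ACSL1 (r = 0.79, rho = 0.83, adjusted p = 0.0031), FABP3 with ACSL1 (r = 0.75, rho = 0.77, adjusted p = 0.0068), CD36 with ACSL1 (r = 0.71, rho = 0.74, adjusted p = 0.013) and, inversely, FABP4 with ACSL3 (r = -0.65, rho = -0.78, adjusted p = 0.033). The 2 arrays farthest from the median of the first-named gene of a pair were then left out, without regard to the second gene. This gave r of 0.74, 0.71, 0.61, 0.67 and -0.57 in that order. With group means removed and all 17 arrays, r was 0.91, 0.76, 0.77, 0.74 and -0.64.

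On the 7 dim arrays FABP3 and ACSL1 had r = 0.93 and rho = 0.86 (exact permutation p = 0.0056), while FABP4 and ACSL3 had r = -0.04 (exact permutation p = 0.92). No dim pair passed adjustment over the 36 pairs (lowest adjusted p 0.20). LPL, whose difference between RFIneg and RFIpl was the largest of the 9 without passing, had r = 0.59 with CD36 on bright arrays (adjusted p = 0.054) and r = -0.12 on dim ones. ACSL4 was within 0.19 of 0 with every other member on the bright arrays.

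**Figure D5:**
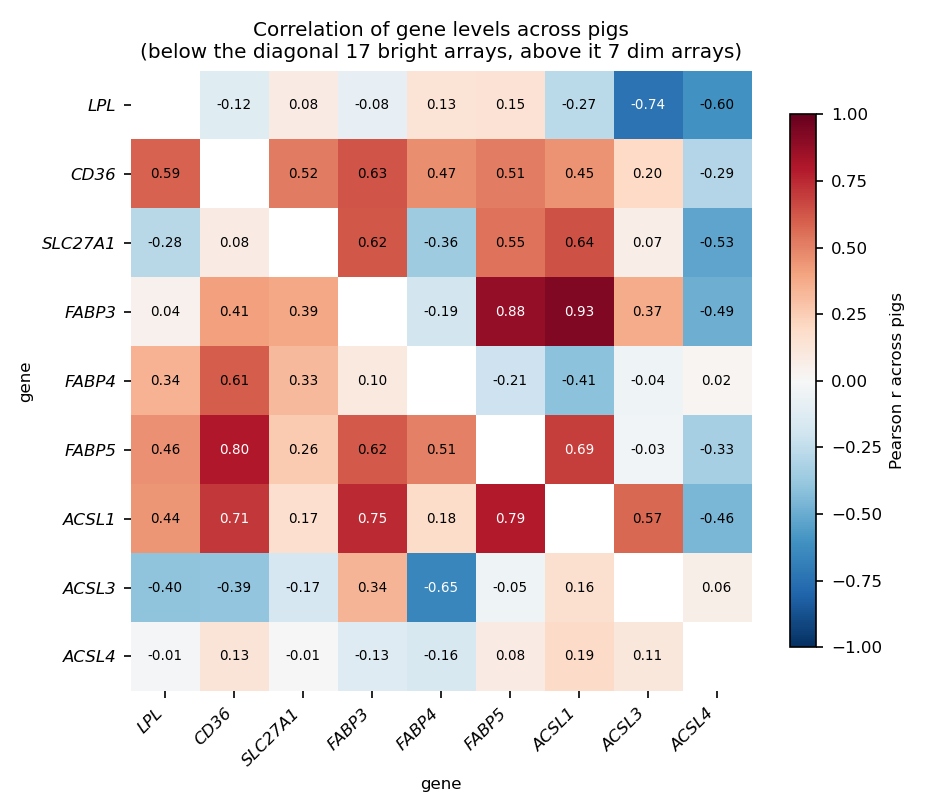
Pearson's r of log2 levels across pigs for the 36 pairs of the 9 genes, below the diagonal over 17 bright arrays and above it over 7 dim arrays. FABP3, FABP5 and ACSL1 are positively correlated in both triangles (0.62 to 0.79 bright, 0.69 to 0.93 dim), and FABP4 with ACSL3 stands at -0.65 on bright and -0.04 on dim arrays.

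The genes with the most similar pattern were looked up among 4301 others over the bright arrays for the member with the smallest p in each comparison. For LPL they were CAV2, a caveolar coat protein (r = 0.93), SNX10 (r = 0.91) and OLF42-3 (r = 0.91), with r of 0.80, 0.68 and 0.23 on the dim arrays. For CD36 they were SUV39H2 (r = 0.90), UQCC (r = 0.89) and HDDC3 (r = 0.87), with -0.06, 0.45 and 0.19 on dim arrays. For FABP3 they were BNIP1 (r = 0.89), PPP2CA (r = 0.88) and PSMD10 (r = 0.88), with 0.08, 0.70 and 0.80 on dim arrays. These are the highest of many correlations and are given as a description.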

How the data were processed

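Total RNA was labelled with Cy3 and hybridised to one-colour Agilent arrays, per the labels' protocols. The file headers give version 10.7.3.1 of Feature Extraction as the program that quantified the spots. The deposited processed intensity was already background-subtracted, and the deposited value table held log2 of it centred on each array's median. The submitters' processing notes name R 2.10.0.

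The processed intensity, with a floor of 1, was put on the log2 scale and each array's 75th percentile was subtracted. Probes well above background on at least 6 of 8 arrays of a group and missing on at most 6 arrays were kept. Group differences were tested over all 24 arrays with limma 3.58.1 (R 4.3.3) and Benjamini-Hochberg adjustment over all kept probes at 0.05, two-sided. Tables, permutation tests (100000 draws) and figures used Python 3.11.15 with scipy 1.17.1. The scripts were tested on simulated data.

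A gene's value is that of its kept probe with the highest mean level. All 9 genes are named. Listed genes are named where called (at most 4 per list and comparison), as are the 3 genes whose pattern over the bright arrays was most like that of the member with the smallest p in each comparison. PPARG was added after its values were seen. The members and lists were chosen with earlier results of these data known. Gene names came from the files and from RefSeq; 31282 probes had none. Alternatives were brightness, slide, scan day and replicate blocks, other scalings, normexp, array weights, the mean of probes, the deposited table and arrays left out. The number of arrays limits the precision.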

Additional observations from a re-analysis of the deposited data

Results flagged for a closer look

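Of 54 sets of pigs examined for a single array far from the rest, 1 held such an array. LPL in RFIneg 4 read 6.44 on the log2 scale, the highest of the 8 RFIneg pigs, where the next was 6.11, and the gap took up 0.557 of the group's range. The threshold is one that about 5% of sets pass by chance.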

How the results depend on the processing

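Of the differences of the 9 genes under other settings, 724 values kept direction and side of the threshold, 12 newly passed it and 74 reversed. Blocking on brightness gave 1 call in RFIplR minus RFIpl (FABP3) and 1 for any difference. The RFIplR minus RFIpl call was also 1 with that block and a replicate block, without RFIpl 2, without RFIpl 7 and 8, with normexp, and, in settings chosen after seeing the data, with the mean of a gene's probes, the deposited table, quantile scaling or without RFIpl 1 and 2 (FABP3 adjusted p 0.016 to 0.045). In RFIplR minus RFIpl these settings called 766 to 3107 of 22848 to 28601 probes. With the block the count for any difference was 1 in these settings, except the replicate block and the 2 without a pair of arrays. Array weights gave 2 calls in RFIneg minus RFIpl (LPL 0.59, adjusted p = 0.018, and ACSL3 -0.53, adjusted p = 0.015) and 2 for any difference. Of all 28601 probes, that setting called 3063 in RFIneg minus RFIpl and 3646 for any difference. In RFIneg minus RFIpl the mean of probes with the block gave 1, FABP4 (0.38, adjusted p = 0.034), where 1194 of 22848 values were called. With each array left out in turn and the block, calls ran from 0 to 2 in RFIplR minus RFIpl and from 0 to 2 for any difference, where 16 of the 24 fits gave 0. The cause was not tested.

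The labels do not say whether replicate numbers pair the pigs, and too few arrays share a number to tell. Same-numbered arrays had a mean correlation of -0.32 to 0.56, and of -0.11 to 0.10 with brightness removed. With the replicate block alone FABP3 in RFIplR minus RFIpl was -0.77 (adjusted p = 0.849) and 0 members were called in each comparison, and with the replicate and brightness blocks it was -0.59 (adjusted p = 0.0393).

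Differences that changed sign, none of them called, were as follows, and the cause was not tested. In RFIneg minus RFIpl, LPL was -0.066 on dim arrays and CD36 -0.15 on scan day 2. FABP5 there was 0.054 on bright arrays, 0.20 without RFIpl 7 and 8 (0.052 with the block), 0.012 with normexp (with and without the block), 0.036 with median scaling, 0.055 with array weights and 0.081 without RFIpl 1 and 2. ACSL1 there was -0.30 on dim arrays, -0.26 on scan day 1, -0.11 without RFIpl 2 (-0.084 with the block), -0.0078 with quantile scaling (with and without the block) and -0.067 without RFIpl 1 and 2 (-0.012 with the block). ACSL4 there was -0.40 with slide as a block, -0.36 with scan day as a block, -0.016 on bright arrays, -0.077 and -1.003 on scan days 1 and 2, -0.0025 without RFIpl 2 with the block, -0.032 with normexp (with and without the block) and -0.034 with array weights.

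In RFIneg minus RFIplR, LPL was -0.078 on dim arrays, FABP5 -0.12 on scan day 2, and ACSL3 0.0019 on dim arrays, 0.039 with normexp and 0.026 with median scaling. ACSL4 there was -0.094 with brightness, -0.19 with slide, -0.21 with scan day, -0.095 with replicate and brightness and -0.034 with slide and brightness as blocks. It was -0.14 on bright arrays, -0.098 and -0.64 on scan days 1 and 2, -0.094 with array weights and -0.044 with the mean of probes, and with the brightness block -0.097 without RFIpl 2, -0.096 without RFIpl 7 and 8, -0.13 with the mean of probes, -0.095 with the deposited table, -0.10 with quantile scaling and -0.095 without RFIpl 1 and 2.

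In RFIplR minus RFIpl, LPL was -0.028 on scan day 1 and -0.057 with normexp (-0.012 with the block). CD36 was 0.034 with slide and brightness as blocks, 0.072 on bright arrays and 0.0089 with array weights. FABP4 was -0.11 on scan day 1, -0.24 with normexp (-0.17 with the block) and -0.019 with quantile scaling. ACSL4 was 0.13 with brightness, 0.13 with replicate and brightness and 0.12 with slide and brightness as blocks, 0.12 on bright arrays, 0.19 on dim arrays, 0.0204 on scan day 1, 0.0199 without RFIpl 7 and 8, 0.059 with array weights, 0.14 with the mean of probes and 0.031 without RFIpl 1 and 2. With the brightness block it was 0.094 without RFIpl 2, 0.11 without RFIpl 7 and 8, 0.23 with the mean of probes, 0.13 with the deposited table, 0.12 with quantile scaling and 0.13 without RFIpl 1 and 2. The share of probes that cleared background on an array ran from 43.1% to 79.9%, and a probe that did not clear it on some arrays is less firmly measured there.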
